A study of Mus musculus with 16 samples.

Results

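The effects described here are the differences between the response of wild-type liver to Wy14643 and the response of PPARα-null liver to the same compound, that is, the genotype by Wy14643 interaction. For each probe set it was taken on the log2 scale as wild type on Wy14643 minus wild type on control food, from which knockout on Wy14643 minus knockout on control food was subtracted. All 45037 probe sets that are not Affymetrix controls, of 45101 on the array, and all 16 arrays of the series entered it. A positive value means that Wy14643 moved a gene upward more in wild type than in knockout, and a negative value the reverse. The arrays came from 4 male mice in each of the 4 groups, 12 to 20 weeks old, with 1 array per mouse. Wild-type mice were of strain 129S1/SvImJ and PPARα-null mice of strain 129S4/SvJae, so loss of the receptor and the difference between the substrains cannot be told apart. Wy14643 was given in the food at 0.1% (w/w) for 5 days, and the control groups were the same genotypes on food without it. The whole body lacks the receptor in the null mice, so the liver was not the only tissue affected.

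PPARα is a nuclear receptor of fatty acids that is abundant in hepatocytes, and Wy14643 is a synthetic agonist of it. It binds DNA together with the retinoid X receptor, mostly at direct repeats of a hexamer separated by a single base (DR1), and is known in liver for raising genes of fatty acid uptake, peroxisomal and mitochondrial β-oxidation and microsomal ω-oxidation. In rodents sustained activation is also known to enlarge the liver, multiply peroxisomes and lower many genes of plasma proteins and of detoxification.

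Effects were sorted by 3 calls from limma, each made at an adjusted p under 0.01 with a fold over 1.5. A receptor-required effect had the interaction and the wild-type response called in the same direction with no call in knockout. A shared effect had both responses called in the same direction, and was unequal if the interaction was called too. An opposite effect had both responses called in opposite directions and the interaction called too. The word receptor-required describes this pattern of calls only.

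Array medians lay between 2.15 and 2.24 on the log2 scale, and 12877 probe sets had a mean above 4. Values near the array median are dim, and folds from them depend on the background correction. The median standard error was 0.19 for an interaction and 0.13 for a single response. Ppara itself read 9.77, 9.89, 10.07 and 9.96 on the wild-type control arrays, 10.80, 10.81, 10.82 and 10.70 on wild type with Wy14643, 9.15, 8.82, 9.48 and 9.71 on knockout control, and 9.35, 9.47, 9.68 and 10.04 on knockout with Wy14643. Signal was thus present in every knockout array of this probe set, the brightest of 3. On control food both other probe sets gave lower means in knockout, by 1.38 (adjusted p = 9.68e-06) and 1.59 (adjusted p = 5.9e-05). The position of the probes relative to the disrupted part was not analysed here. Its interaction was 0.52 ± 0.24 (log2 ± SE, adjusted p = 0.199) in the brightest probe set, and 0.05 and 0.61 in the others, none of them called. Therefore the receptor's own transcript was not shown to respond differently in the 2 genotypes.

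Almost the whole called response to Wy14643 was found in wild type. The interaction was called for 3170 of 45037 probe sets (7.04%), 1845 of them higher (4.1%) and 1325 lower (2.94%). The wild-type response was called for 4801 probe sets (10.7%), 2630 of them raised (5.84%) and 2171 lowered (4.82%), and the knockout response for 6 (0.0133%), all raised. At an unadjusted p under 0.05, with no limit on the fold, the knockout response gave 4154 probe sets (9.22%) and the wild-type response 13372 (29.7%). On control food 159 probe sets differed between the genotypes (0.353%). With 1 probe set per gene the interaction was called for 1820 of 18193 genes (10%), 979 higher (5.38%) and 841 lower (4.62%).

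Of the called interactions 1718 probe sets were receptor-required and raised, and 1178 were receptor-required and lowered. A further 270 had neither response called, 4 were shared but unequal, and none was opposite or called in knockout only. The 2 remaining probe sets with a call in knockout were shared without a called difference. Beside these stood 906 probe sets raised and 993 lowered in wild type in which neither the knockout response nor the interaction was called. They are placed in no class, because a missing call in knockout does not show that the gene failed to respond.

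The classes were built from the calls, so their medians are a description. The receptor-required raised probe sets had a median response of 1.28 in wild type and -0.03 in knockout. Those lowered had medians of -1.14 and 0.00342. The 95% interval of the knockout response lay within 1.5-fold in either direction for 1187 of the 1718 raised (69.1%) and 910 of the 1178 lowered (77.2%). For the others a knockout change of that size is within the error. Among the unplaced probe sets the knockout estimate had the sign of the wild-type response in 657 of 906 raised and in 864 of 993 lowered. A called wild-type response without a called interaction itself favours such agreement. These counts therefore do not show whether the knockout responded.

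**Figure D1:**
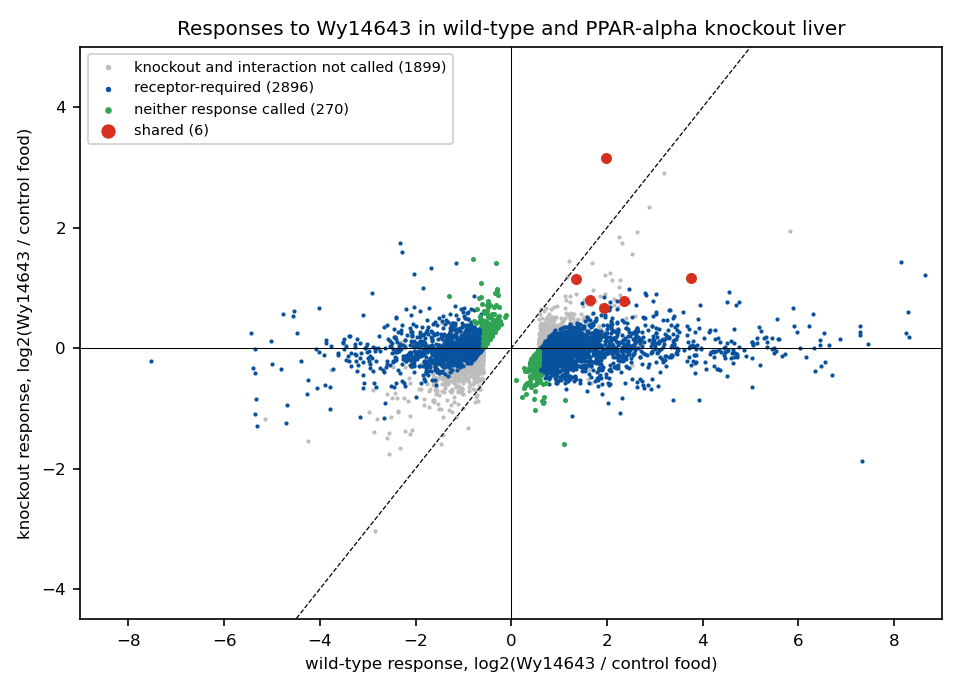
Response to Wy14643 in knockout (vertical axis, log2) against that in wild type (horizontal axis, log2) for each probe set with at least 1 of the 3 calls, coloured by class, with the number of probe sets in brackets. The dashed line marks equal responses. The 2896 receptor-required probe sets centre near 0 in knockout, with medians of -0.03 for those raised and 0.00342 for those lowered. Single ones lie far from 0, such as Pdk4 at -1.88, Thrsp at 1.60 and Acot3 at 1.44. The 6 shared ones lie above 0 because all were called raised in knockout.

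A second probe set of the same gene, measured on the same arrays, was available for part of each class. Of 274 receptor-required raised genes with one, 270 had an interaction of the same sign there and 203 were called in the same direction, with none called in the other. Of 252 lowered genes 245 had the same sign, 149 were called and 1 was called the other way. By contrast, only 16 of 52 genes with neither response called were called again, although 49 kept the sign.

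Pdk4, the kinase that switches off pyruvate dehydrogenase when fat is burnt, had the largest interaction of the named genes, 9.22 ± 0.73 (adjusted p = 9.9e-08). It read 5.56, 3.95, 3.54 and 3.98 on the wild-type control arrays and 11.71, 12.25, 11.81 and 10.59 with Wy14643, against 8.82, 6.40, 6.53 and 6.58 on knockout control and 5.56, 5.54, 4.47 and 5.23 on knockout with Wy14643. The arrays on Wy14643 lay above all controls in wild type and below all controls in knockout. Its interaction thus holds a wild-type response of 7.34 and a knockout estimate of -1.88, and the latter was not called (adjusted p = 0.223).

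Fabp3, a fatty acid binding protein best known from heart, read 2.27, 2.26, 2.16 and 2.07 on wild-type control, 10.37, 10.70, 10.20 and 10.72 on wild type with Wy14643, 2.40, 2.19, 1.96 and 2.41 on knockout control, and 2.42, 2.99, 2.09 and 2.21 on knockout with Wy14643. It was at the dim level in 3 of the groups and bright in the fourth. The interaction was 8.12 ± 0.24 (adjusted p = 4.48e-13).

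Cyp4a31, a fatty acid ω-hydroxylase, read 4.06, 3.38, 3.87 and 3.24 on wild-type control, 11.95, 11.93, 11.97 and 11.87 on wild type with Wy14643, 1.92, 1.79, 1.5 and 1.97 on knockout control and 2.09, 3.10, 2.36 and 2.04 on knockout with Wy14643. In knockout too, no array on Wy14643 fell among the controls, but the estimate of 0.61 was not called (adjusted p = 0.354). With the dim knockout control mean raised to 2.24, the highest array median, this estimate became 0.16. The interaction was 7.68 ± 0.29. Genes of this family are near-identical in sequence, so the signal may be shared between its members.

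The fatty acid transporter Slc27a1 read 1.99, 1.76, 2.08 and 2.33 on wild-type control and 9.37, 9.63, 9.69 and 9.26 with Wy14643, against 1.88, 2.07, 2.09 and 2.05 on knockout control and 2.06, 1.88, 2.59 and 1.86 on knockout with Wy14643. Only wild type on Wy14643 stood out, and the interaction was 7.38 ± 0.22. Among the other largest increases were the monoacylglycerol acyltransferase Mogat1 (7.01), the fatty acid binding protein Fabp4 (6.78), the acyl-CoA thioesterase Acot3 (6.71) and the lipid droplet protein Cidec (6.33). Also among them were the laminin chain Lamb3 (7.15), the zinc transporter Slc39a5 (6.77), the proton channel Otop1 (6.39) and the vitamin B uptake protein Amn (6.32). In knockout these 8 had estimates between -0.44 for Lamb3 and 1.44 for Acot3, none called.

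Several of these values rest on dim groups. With group means under 2.24 raised to 2.24, the interaction became 8.08 for Fabp3, 8.13 for Cyp4a31, 7.25 for Slc27a1, 6.78 for Mogat1, 5.88 for Slc39a5, 5.85 for Otop1 and 5.03 for Amn. Pdk4, Lamb3, Fabp4 and Acot3 had no dim group mean.

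**Figure D2:**
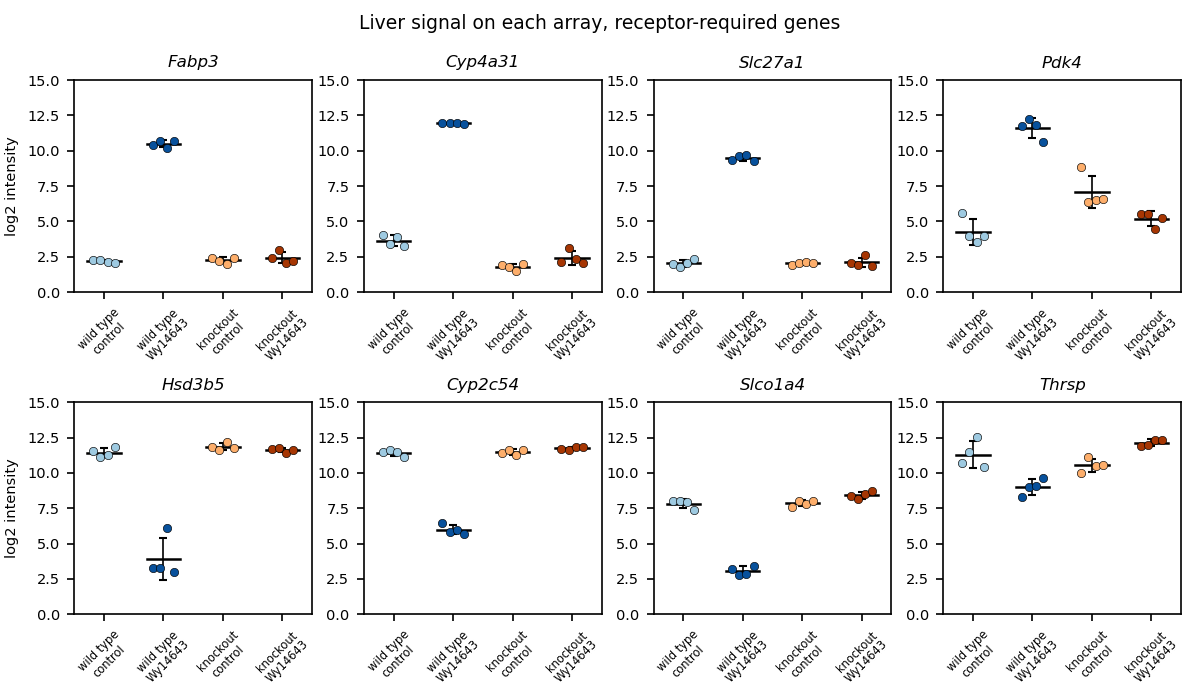
Log2 intensity (vertical axis) on each of the 16 arrays for 8 named receptor-required genes, by genotype and food (horizontal axis). Points are arrays, long bars the mean and error bars the SD of 4 arrays. Wild type on Wy14643 departs from its controls in all 8 panels, and in Pdk4, Thrsp and, by a smaller step, Slco1a4 the knockout arrays on Wy14643 lie apart from their controls in the opposite direction.

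The promoters of the receptor-required genes were read for DR1 letters. The RefSeq window from 250 bases before to 50 bases after the start of each gene was searched on both strands for AGGTCANAGGTCA with at most 2 mismatches over its 12 fixed bases. Windows were found for 749 of the 924 receptor-required raised genes, and 29 of these (3.87%) held a match. The share was 39 of 593 (6.58%) for receptor-required lowered genes, 574 of 14452 (3.97%) for all genes of the array and 1190 of 27025 (4.4%) for all RefSeq promoters. As a class, the raised genes thus held the letters about as often as any gene in this short window, which says nothing about sites farther away. With a wild-type response over 4-fold the share was 8 of 194 raised (4.12%) and 9 of 105 lowered genes (8.57%). The lists of oxidation genes described below gave 3 of 22 mitochondrial (13.6%) and 2 of 18 peroxisomal genes (11.1%). These counts are small, and the shares were not tested. Among the named raised genes, 3 with a match are shown. The listing does not cover every named gene, so it is not a full count of those with a match. Their bases before the start are given 5′ to 3′ on the strand of the gene, in build GRCm38.p6, with the match in capitals.
Mogat1: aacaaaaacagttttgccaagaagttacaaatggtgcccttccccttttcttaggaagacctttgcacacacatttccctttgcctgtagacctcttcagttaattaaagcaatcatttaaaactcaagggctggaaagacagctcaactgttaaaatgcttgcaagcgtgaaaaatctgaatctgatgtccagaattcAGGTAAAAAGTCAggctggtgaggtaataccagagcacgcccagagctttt
Slc39a5: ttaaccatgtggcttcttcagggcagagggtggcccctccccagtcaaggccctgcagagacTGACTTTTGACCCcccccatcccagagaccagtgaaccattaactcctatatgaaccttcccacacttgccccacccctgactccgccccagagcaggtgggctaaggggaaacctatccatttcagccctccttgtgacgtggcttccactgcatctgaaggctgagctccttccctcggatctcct
Acot4: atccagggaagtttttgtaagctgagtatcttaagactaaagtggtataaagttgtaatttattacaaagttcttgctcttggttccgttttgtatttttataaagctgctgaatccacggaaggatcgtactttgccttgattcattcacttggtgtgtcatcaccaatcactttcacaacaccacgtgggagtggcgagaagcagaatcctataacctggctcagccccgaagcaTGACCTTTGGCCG
These stretches are chr1:78510810-78511059 (plus strand) for Mogat1, chr10:128400467-128400716 (minus strand) for Slc39a5 and chr12:84038129-84038378 (plus strand) for Acot4. The match of Mogat1 starts at -51 from the gene start and reads on the strand of the gene, and those of Slc39a5, at -188, and Acot4, at -13, read on the other strand. All 3 genes were called raised in wild type and not called in knockout, with interactions of 7.01, 6.77 and 5.04.

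The largest receptor-required decrease of the named genes was that of Hsd3b5, a steroid dehydrogenase of male liver. It read 11.54, 11.14, 11.25 and 11.80 on wild-type control, 3.28, 3.26, 6.13 and 2.98 on wild type with Wy14643, 11.80, 11.62, 12.21 and 11.76 on knockout control and 11.70, 11.78, 11.44 and 11.60 on knockout with Wy14643. Every array of wild type on Wy14643 lay far below the other 12, the third less so. The interaction was -7.30 ± 0.66 (adjusted p = 5.15e-07).

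Cyp2c54, a cytochrome P450, read 11.46, 11.59, 11.49 and 11.13 on wild-type control, 6.43, 5.80, 5.97 and 5.70 on wild type with Wy14643, 11.44, 11.64, 11.23 and 11.65 on knockout control and 11.67, 11.64, 11.81 and 11.85 on knockout with Wy14643. The same 4 arrays stood alone, with an interaction of -5.69 ± 0.21 (adjusted p = 4.8e-12). Slco1a4, a carrier of bile acids and other organic anions, read 8.03, 8.01, 7.95 and 7.36 on wild-type control and 3.21, 2.76, 2.89 and 3.45 with Wy14643, against 7.56, 8.04, 7.82 and 8.0 on knockout control and 8.35, 8.14, 8.51 and 8.72 on knockout with Wy14643. In knockout the arrays on Wy14643 lay slightly above their controls, an estimate of 0.57 that was not called (adjusted p = 0.285). The interaction of Slco1a4 was -5.33 ± 0.25.

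Other large decreases were the P450 Cyp4f14 (-5.36), Fam47e (-5.15), the organic anion transporter Slc22a7 (-4.94), the dehydrogenase Sdr9c7 (-4.73), the imprinted noncoding RNA Meg3 (-4.68) and the aldehyde oxidase Aox3 (-4.46). The pseudogene Serpina4-ps1 gave -4.25 with adjusted p = 0.00832 and lost its call in 12 of 16 refits that left out 1 array, over which its value ranged from -4.85 to -3.55. Fam47e was dim in wild type on Wy14643 and gave -3.72 with that mean raised to 2.24. None of these 7 was called in knockout.

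Only 5 of 18193 genes (0.0275%) were called in knockout, all of them raised and called in wild type too, and 4 of these act on fatty acids. Acaa1b, a peroxisomal thiolase, had the most similar responses of the 5. It read 12.90, 12.77, 12.80 and 12.49 on wild-type control, 14.10, 14.16, 14.07 and 14.01 on wild type with Wy14643, 11.09, 11.23, 10.89 and 11.10 on knockout control and 12.23, 11.99, 12.34 and 12.32 on knockout with Wy14643. In both genotypes the arrays on Wy14643 lay above all controls, but knockout on Wy14643 stayed below wild type on control food. The wild-type response was 1.35 and the knockout response 1.14 (adjusted p = 0.000295). Their difference was 0.21 with a 95% interval of -0.11 to 0.53 and was not called (adjusted p = 0.475), so responses that differ by up to 0.53 on the log2 scale remain within the error. The thiolases Acaa1a and Acaa1b are close copies, and signal from the former could contribute. Acaa1a itself was receptor-required with 1.97, from 2.24 in wild type and 0.27 in knockout.

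Aldh3a2, a fatty aldehyde dehydrogenase, was shared but unequal. It read 9.22, 9.11, 8.94 and 8.64 on wild-type control, 12.73, 12.76, 12.78 and 12.67 on wild type with Wy14643, 7.29, 7.33, 6.86 and 7.59 on knockout control and 8.46, 8.07, 8.58 and 8.62 on knockout with Wy14643. Knockout arrays on Wy14643 lay above their own controls and below all wild-type controls. The responses were 3.75 and 1.16 (adjusted p = 0.00805 in knockout), and the interaction was 2.59 ± 0.22.

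Ech1, an enoyl-CoA isomerase, read 10.20, 9.96, 10.07 and 9.98 on wild-type control, 12.39, 12.33, 12.46 and 12.43 on wild type with Wy14643, 8.19, 8.20, 8.01 and 8.14 on knockout control and 8.97, 8.81, 8.85 and 9.06 on knockout with Wy14643. Acadl, the long-chain acyl-CoA dehydrogenase, read 10.51, 10.49, 10.48 and 10.47, then 12.41, 12.48, 12.56 and 12.29, then 9.06, 9.0, 8.97 and 8.96, and last 9.77, 9.57, 9.80 and 9.48 in the same order of groups. Neither gene had an overlap between foods in either genotype. The responses of Ech1 were 2.35 and 0.78 and those of Acadl 1.95 and 0.66, with interactions of 1.57 ± 0.12 and 1.29 ± 0.13. A further probe set of this kind, annotated to several genes and therefore not named, gave 1.66 in wild type and 0.80 in knockout.

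The fifth gene was Ciart, a repressor of the circadian clock, which lay under the level asked of named genes and was taken up after its values were seen. It read 3.47, 3.39, 4.69 and 2.65 on wild-type control, 5.27, 5.48, 5.69 and 5.69 on wild type with Wy14643, 2.66, 2.53, 2.88 and 3.20 on knockout control and 5.56, 5.92, 5.85 and 6.56 on knockout with Wy14643. Ciart was the only called gene with the larger response in knockout, 3.16 against 1.98. The interaction was -1.18 with a 95% interval of -2.10 to -0.26 and was not called (adjusted p = 0.0983).

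**Figure D3:**
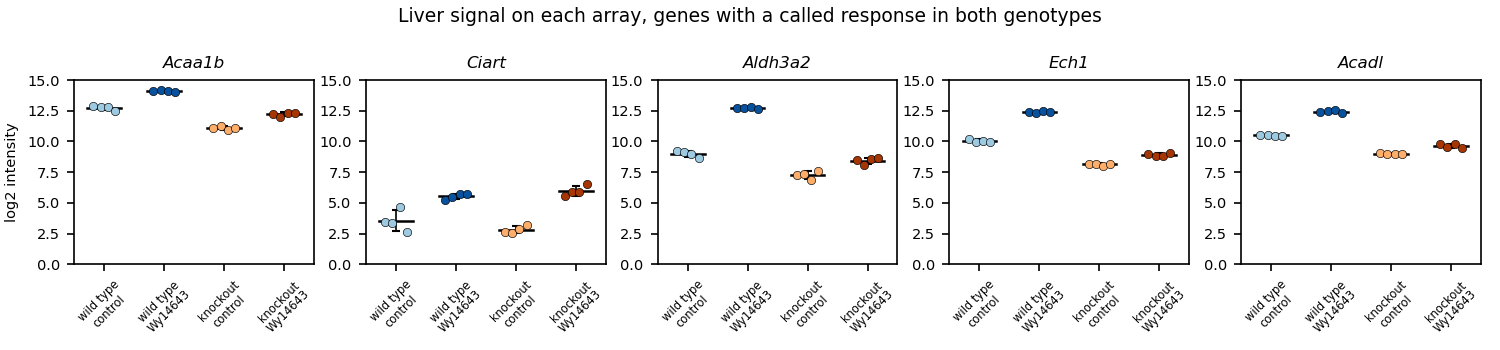
Log2 intensity (vertical axis) on each array for the 5 named genes with a called response in both genotypes, by genotype and food (horizontal axis). Points are arrays, long bars the mean and error bars the SD of 4 arrays. On control food all 5 have their lower mean in knockout, and in each the arrays on Wy14643 lie above the controls of the same genotype.

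Genes of fatty acid oxidation already differed between the genotypes without Wy14643. On control food 9 of 25 mitochondrial and 5 of 23 peroxisomal oxidation genes were called between wild type and knockout, beside 99 of 18193 genes (0.544%). The mean of 4 control arrays was 12.74 in wild type and 11.08 in knockout for Acaa1b, 8.98 and 7.27 for Aldh3a2, 10.05 and 8.14 for Ech1, and 10.49 and 9.0 for Acadl. All 4 thus started lower in knockout. This comparison uses the same control arrays as the responses, so it is given as values only. None of 19 clock genes was called between the genotypes on control food. With 0.544% of all genes called, this does not set apart a list of that size.

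Fatty acid oxidation genes were found in the receptor-required, the shared and the unplaced groups. Of 25 mitochondrial genes measured, 16 had a higher called interaction and 1 a lower one, beside 5.38% and 4.62% of all genes. The median interaction of the list was 1.29, beside -0.04 over all genes. Their median response was 1.38 in wild type and 0.20 in knockout, where the estimate was positive for 21 of the 25, beside 9506 of all 18193 genes. In 10 of them the knockout arrays on Wy14643 lay wholly above the knockout controls, beside 6.38% of all genes whose knockout arrays did not overlap in either direction. Besides Acadl these included the carnitine transporter Slc22a5 (0.71 in knockout), the carnitine carrier Slc25a20 (0.55), the rate-setting carnitine palmitoyltransferase Cpt1a (0.59) and the isomerase Eci1 (0.40), of which the last 3 were singled out after their values were seen. None of these 4 was called in knockout. Cpt1a gave 1.14 in wild type, and its interaction of 0.55 was not called (adjusted p = 0.0636). Largest in the list were Slc22a5 (interaction 3.98), the thioesterase Acot2 (3.59) and Acad12 (3.26).

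Of 23 peroxisomal oxidation genes 16 had a higher and 1 a lower interaction, beside 5.38% and 4.62% of all genes. The median interaction was 1.54, with median responses of 1.85 in wild type and 0.09 in knockout. Knockout arrays did not overlap for 10 genes, 7 raised and 3 lowered, beside 6.38% of all genes in either direction. Acot3, which read 3.96, 3.97, 3.78 and 4.21 on knockout control and 4.65, 4.87, 6.14 and 6.01 on knockout with Wy14643, was among the 7, and its estimate of 1.44 was not called (adjusted p = 0.0596). The 3 lowered in knockout, none of them called there, were raised in wild type. These were the carnitine acetyltransferase Crat (4.37 in wild type and -0.37 in knockout), the thioesterase Acot5 (3.17 and -0.23) and the lyase Hacl1 (1.16 and -0.34), singled out after their values were seen. The very long chain transporter Abcd2 had an interaction of 6.02 and Acot4 one of 5.04.

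A weak shared component was also seen among bright probe sets. The wild-type and knockout responses use no array in common. Of 1660 probe sets with a mean above 4 that were raised in wild type, 54.4% had a positive knockout estimate, and of 1823 lowered in wild type 33.7% did, beside 41.8% of all 12877. The median knockout estimates were 0.02, -0.07 and -0.04. Pearson's r between both responses was 0.201 across these probe sets, which are not independent and share the arrays of each genotype.

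With the responses taken at an unadjusted p under 0.05 and no limit on the fold, a setting chosen after the data were seen, 1283 probe sets were shared. A fold over 1.5 in both responses was then asked as well, with 1 probe set per gene. Under it 27 raised and 24 lowered genes reached a group mean of 6 and had no overlap in either genotype. Largest by the smaller response were the cell cycle kinase Wee1, with 2.87 in wild type and 2.35 in knockout, then Acot3, and then the DNA repair nuclease Dclre1a with 1.69 and 1.42. Angptl4, an inhibitor of lipoprotein lipase and a known target of PPAR receptors, gave 2.06 and 1.25. Among those lowered were the manganese exporter Slc30a10 (-2.59 and -1.49), Slc41a2 (-2.86 and -1.39), the clock repressor Nfil3 (-2.08 and -1.37), the tight junction protein Cldn1 (-2.65 and -1.16) and the vasopressin receptor Avpr1a (-2.50 and -1.15). Of these 9 genes Acot3 and Cldn1 (-1.49, adjusted p = 0.00708) had a called interaction. In knockout none of the 9 passed the adjusted test.

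Angptl4 read 7.62, 7.94, 7.57 and 9.23 on wild-type control, 10.10, 10.27, 10.32 and 9.92 on wild type with Wy14643, 3.97, 5.28, 5.11 and 5.48 on knockout control and 5.81, 5.68, 7.39 and 5.97 on knockout with Wy14643. Its level was lower in knockout on both foods. In both genotypes the arrays on Wy14643 lay above their own controls, which was a condition of its choice. The knockout response was not called (adjusted p = 0.303). The interaction of 0.81 had a 95% interval of -0.38 to 2.00. Creb3l3, a liver transcription factor of fasting, gave 0.61 in wild type and 0.57 in knockout with adjusted p = 0.0406 in knockout, and its interaction of 0.03 had an interval of -0.26 to 0.32.

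No probe set met the definition of an opposite effect. With responses at an unadjusted p under 0.05, no limit on the fold and the interaction still called, 348 did. Of these 191 were raised and 157 lowered in wild type. After 1 probe set per gene, 9 genes reached a mean of 6 with no overlap in either genotype. First by the smaller response was Pdk4, described above. Thrsp, an activator of lipogenesis that responds to carbohydrate, read 10.72, 11.46, 12.54 and 10.43 on wild-type control, 8.29, 8.99, 9.08 and 9.63 on wild type with Wy14643, 10.03, 11.16, 10.49 and 10.54 on knockout control and 11.92, 12.01, 12.34 and 12.35 on knockout with Wy14643. It was lower with Wy14643 in wild type and higher in knockout, with no overlap in either. The interaction was -3.89 ± 0.52, from -2.29 in wild type and 1.60 in knockout (adjusted p = 0.123 in knockout). The activin receptor Acvr1b (-0.78 and 0.87) and the peptidase Desi2 (0.69 and -0.90) had adjusted p = 0.046 in knockout for each.

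Where neither response was called, the interaction was the sum of a step in each genotype. All 270 such probe sets had estimates of opposite sign, as the definition nearly requires. Denn2b, which codes for a protein with a DENN domain, read 6.22, 6.73, 5.92 and 7.02 on wild-type control, 7.68, 7.71, 7.50 and 7.40 on wild type with Wy14643, 6.89, 6.49, 6.14 and 6.70 on knockout control and 5.68, 5.44, 4.76 and 4.00 on knockout with Wy14643. Both genotypes separated by food, in opposite directions, with an interaction of 2.69 ± 0.42 (adjusted p = 0.00023). The kinase gene Dclk3 gave -2.16 with adjusted p = 0.00818, lost its call in 14 of 16 refits without 1 array and ranged from -2.67 to -1.85 in them.

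Among the gene lists, the circadian clock had the largest share of members whose knockout arrays separated by food (78.9%). Of 19 measured, 15 had knockout arrays on Wy14643 that did not overlap the knockout controls, 10 higher and 5 lower, beside 6.38% of all genes. In wild type the same was true of 6, beside 29.1% of all genes. The median response was 0.57 in knockout and -0.22 in wild type. Only Ciart was called in knockout, and 1 member had a called interaction, a lower one. That is 5.26% of the list, near the 4.62% of all genes. The member was Bhlhe40, a repressor of the clock, with -1.62 ± 0.33 (adjusted p = 0.00239) from -1.21 in wild type and 0.41 in knockout. The members described next were chosen after their values were seen.

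Of these, Dbp, Usp2 and Tef had positive estimates in both genotypes, whereas those of Nfil3 were negative in both. Dbp, a transcription factor with a strong daily rhythm, read 7.75, 8.32, 10.08 and 5.22 on wild-type control, 8.75, 9.21, 9.62 and 9.25 on wild type with Wy14643, 5.53, 5.34, 7.83 and 8.61 on knockout control and 10.31, 10.28, 10.94 and 11.14 on knockout with Wy14643. Its control arrays were widely spread in both genotypes, and those on Wy14643 close together. The responses were 1.37 and 3.84, with adjusted p = 0.0922 in knockout. Usp2 gave 3.03 in wild type and 4.45 in knockout, and Tef 0.34 and 1.56.

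Arntl, the activator of the clock also known as Bmal1, had negative estimates in both genotypes. It read 6.07, 4.09, 2.23 and 6.08 on wild-type control, 1.90, 2.05, 1.46 and 1.65 on wild type with Wy14643, 6.23, 5.82, 3.73 and 4.63 on knockout control and 2.88, 2.04, 1.61 and 1.75 on knockout with Wy14643. Its responses were -2.85 (called in wild type, adjusted p = 0.00516) and -3.03 (adjusted p = 0.111), with an interaction of 0.18. Per2, a repressor, read 3.82, 4.89, 6.21 and 3.90, then 3.59, 3.85, 4.13 and 4.83, against 4.52, 5.06, 4.32 and 4.71 on knockout control and 5.62, 6.29, 6.70 and 5.65 on knockout with Wy14643. In contrast to Arntl, only its knockout arrays separated by food, those on Wy14643 above, and its interaction of -2.02 was not called (adjusted p = 0.0323). The hour at which these mice were killed is not given in the sources used here, and its part in these values was not tested.

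**Figure D4:**
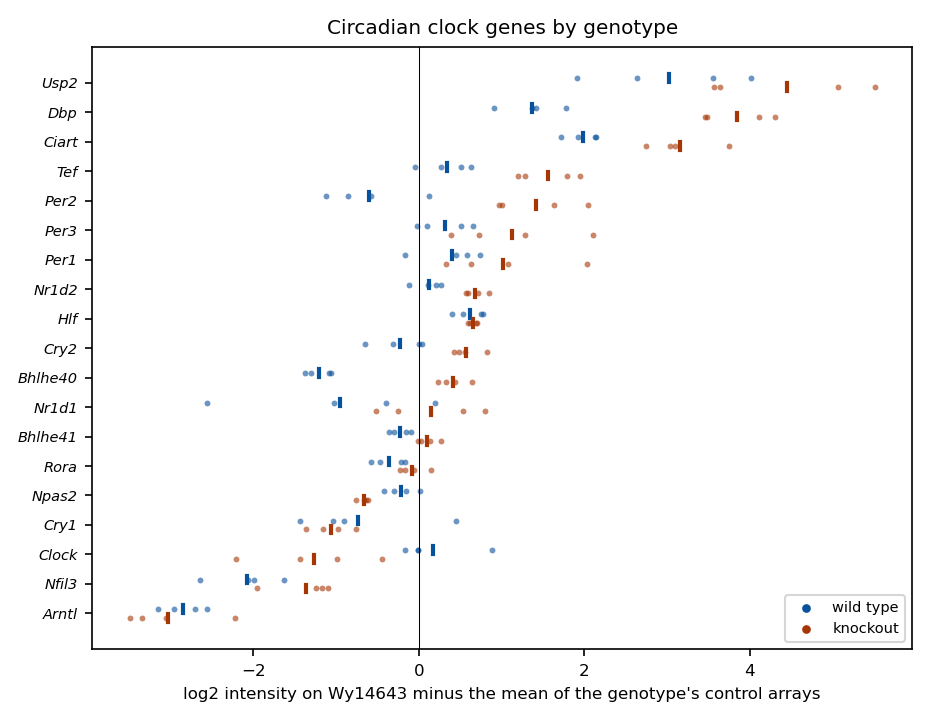
Log2 intensity on Wy14643 minus the mean of the 4 control arrays of the same genotype (horizontal axis) for each of 19 circadian clock genes (vertical axis). Dots are single arrays and bars the mean of 4. Usp2, Dbp and Ciart lie to the right and Arntl and Nfil3 to the left in both genotypes, while the knockout dots of Per2, Tef and Clock lie apart from those of wild type.

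Other lipid genes had called responses in wild type and none in knockout. The counts of each list from here on stand beside 5.38% of all genes with a higher and 4.62% with a lower interaction. Of 19 genes of fatty acid uptake, binding and activation 12 had a higher and 2 a lower interaction (median 1.33). For none of them did the knockout arrays separate, beside 6.38% of all genes. The list for lipid droplets and hydrolysis of stored triglyceride held 20 genes, of which 12 had a higher and 1 a lower interaction (median 1.58), led by Cidec, Cidea (5.82) and Fitm1 (5.00). Cidea read 1.92, 1.39, 1.74 and 1.67 on wild-type control and 6.05, 7.93, 6.31 and 9.27 with Wy14643, against 1.43 to 2.2 over the 8 knockout arrays. It was dim in 3 groups, and its spread in the fourth was wide. Of 21 genes of triglyceride and phospholipid synthesis 11 were higher and 1 lower, among them Mogat1, the phosphatidylcholine transfer protein Pctp (2.97) and choline kinase Chkb (2.56).

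Synthesis of fatty acids gave 9 higher and 3 lower of 23, with the elongase Elovl7 (4.74) and the acetyl-CoA carboxylase Acacb (4.09) up and Thrsp down. Cholesterol synthesis gave 1 higher and 1 lower of 20, 5% each, which is near the shares of all genes (5.38% and 4.62%). These were Hmgcs1 (2.23), which lost its call in 5 of 16 refits without 1 array (1.87 to 2.53), and Stard4 (-1.0), with neither of its responses called. Peroxisome biogenesis gave 6 higher and 1 lower of 13, with Pex11a (3.16), Pex19 (1.32) and Pex3 (1.26). Microsomal oxidation gave 2 higher and 3 lower of 10, so the large increase of Cyp4a31 stood beside the decrease of Cyp4f14.

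**Figure D5:**
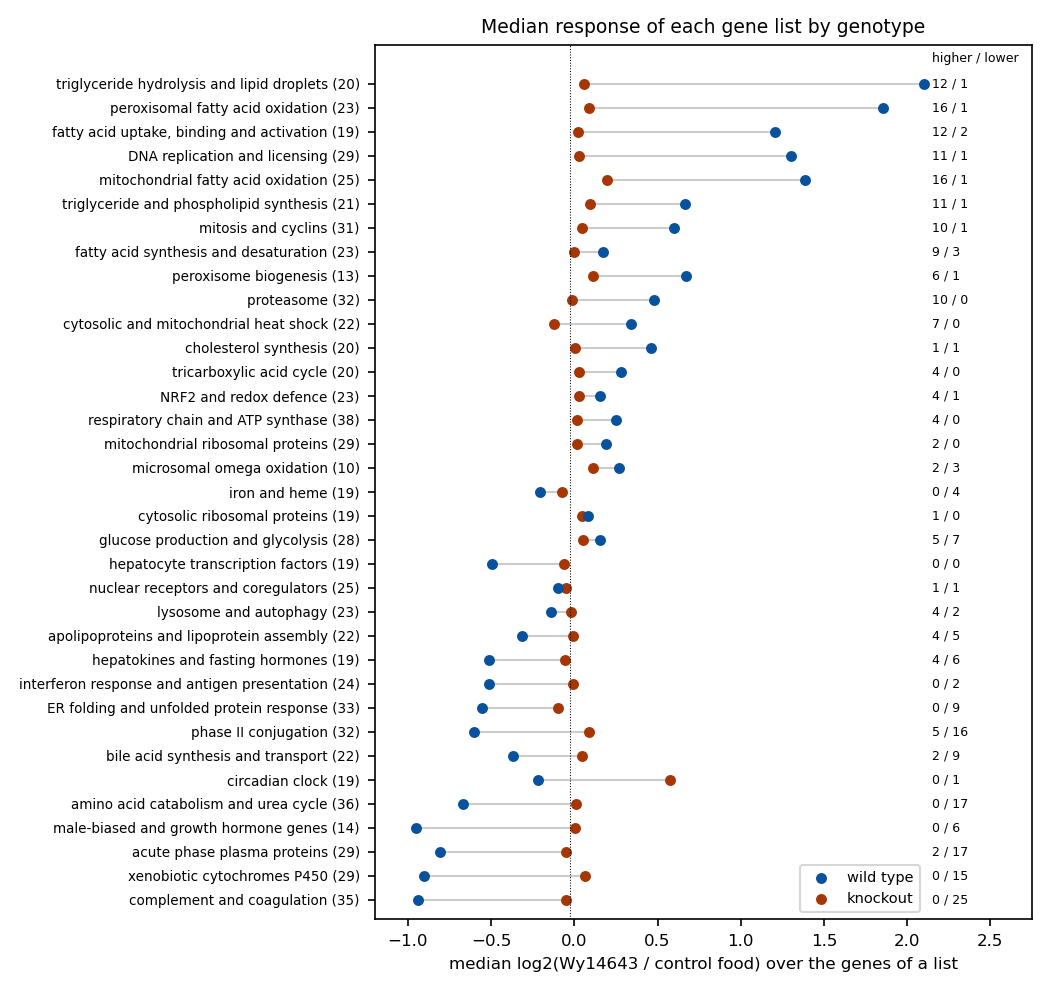
Median log2 response to Wy14643 (horizontal axis) of the genes of each list in wild type (blue) and knockout (brown), with the number of genes measured in brackets (vertical axis), ordered by the median interaction. The numbers at the right count genes with a higher and a lower called interaction, and the dotted line is the wild-type median of all genes. Of the knockout medians plotted, that of the circadian clock, at 0.57, lies farthest from 0, followed by mitochondrial fatty acid oxidation, at 0.20.

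The lists of secreted liver proteins had mostly lower interactions among the called members. Complement and coagulation had 25 of 35 genes with a lower interaction and none with a higher one (median -0.89), led by the complement genes C8b (-3.26), C8a (-3.17) and C1s1 (-3.06). C8b read 10.99, 10.72, 10.82 and 11.15 on wild-type control, 6.93, 7.39, 7.78 and 7.74 with Wy14643, and 10.81 to 11.27 over the 8 knockout arrays. The knockout arrays of both foods were alike, whereas all 4 of wild type on Wy14643 lay below. Of 29 acute phase genes 17 were lower and 2 higher (median -0.83), with Saa1 (-3.51) and Itih4 (-2.35) down and Lcn2 (2.66) up.

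Among detoxification genes, P450 and conjugation enzymes had more lower than higher interactions, and redox defence the reverse. Of 29 xenobiotic P450 genes 15 were lower and none higher (median -0.85), including Cyp2c54, Cyp2c50 (-3.63) and Cyp2c70 (-3.38). Of 32 conjugation genes 16 were lower and 5 higher, led by the sulfotransferases Sult1a1 (-3.34) and Sult5a1 (-3.03) and the glutathione transferase Gsta2 (-2.84). The knockout estimate was positive for 27 of these 32, beside 9506 of all 18193 genes, with a median of only 0.09. Bile acid synthesis and transport gave 9 lower and 2 higher of 22, with Slco1a4 and Slco1a1 (-3.80) down and the efflux pump Abcc4 (4.75) up. Male-biased genes gave 6 lower of 14, and redox defence 4 higher and 1 lower of 23, led by the metallothioneins Mt1 (3.99) and Mt2 (3.75) and by Srxn1 (1.53).

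Amino acid catabolism had 17 lower of 36 and none higher (median -0.73), among them proline dehydrogenase Prodh (-2.62), histidine ammonia-lyase Hal (-2.40) and ornithine transcarbamylase Otc (-2.35). Glucose metabolism was mixed, with 5 higher and 7 lower of 28. Beside Pdk4, the glycerol channel Aqp3 was higher (3.13) and the glycolytic pyruvate kinase Pklr lower (-3.95). Pklr read 7.96, 8.43, 8.96 and 8.72 on wild-type control and 4.22, 4.65, 4.80 and 4.93 with Wy14643, and 7.80 to 8.72 over the knockout arrays. Of 22 apolipoprotein and lipoprotein genes 4 were higher and 5 lower, with the lipoprotein lipase Lpl (4.83) and the transfer protein Pltp (4.65) up and Apoa4 (-3.50) down.

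Both lists of cell division had more genes with a higher than with a lower interaction. DNA replication gave 11 higher and 1 lower of 29 (median 1.31), led by the helicase subunits Mcm5 (4.68), Mcm6 (4.37) and Mcm2 (3.79). Mitosis gave 10 higher and 1 lower of 31 (median 0.63), with Ccnb2 (3.84) and Birc5 (3.32). The largest value of that list was Gadd45b (4.89), a growth arrest gene rather than one of mitosis. Mcm6 read 2.35, 2.10, 2.01 and 2.49 on wild-type control and 6.27, 5.40, 6.08 and 8.13 with Wy14643, and 1.72 to 2.43 over the knockout arrays. All knockout arrays of Mcm6 thus stayed near the level of the wild-type controls. The lower member of the mitosis list was Gadd45a (-2.27, adjusted p = 0.0073), likewise a growth arrest gene, with -0.79 in wild type and 1.48 in knockout. It was singled out after its values were seen.

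Stress genes moved in different directions. Of 32 proteasome genes 10 were higher and none lower (median 0.50), with Psmd4 at 1.45, Psma5 at 1.03 and Psmd3 at 0.92. Of 22 heat shock genes 7 were higher and none lower, led by the small heat shock protein Hspb1 (4.78), Hspa1b (3.61) and Hspa4l (2.48). Hspb1 read 4.46, 4.93, 3.75 and 4.90 on wild-type control and 8.20, 8.14, 8.52 and 8.85 with Wy14643, against 5.14, 4.10, 4.53 and 3.83 on knockout control and 3.99, 3.86, 3.23 and 3.08 on knockout with Wy14643. Knockout estimates were negative for 17 of the 22 heat shock genes, with a median of -0.12. Endoplasmic reticulum folding genes gave 9 lower of 33 (median -0.50), led by Hyou1 (-1.61), Manf (-1.49) and the transcription factor Xbp1 (-1.39). Here the knockout estimate was negative for 25 of 33, beside 8687 of all 18193 genes, and knockout arrays on Wy14643 lay wholly below controls for 8, beside 491 of all genes.

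Beside the 5.38% of all genes with a higher interaction, the tricarboxylic acid cycle gave 4 of 20, led by Mdh2 (1.06), the respiratory chain 4 of 38 (median 0.25), led by Ndufb3 (0.93), mitochondrial ribosomal proteins 2 of 29, and cytosolic ribosomal proteins 1 of 19, each with none lower. The 2 ketone body genes measured included Acat1 at 0.66, which was called. Of hepatokines and fasting hormones 4 were higher and 6 lower of 19, with the leptin receptor Lepr (3.87), the fasting hormone Fgf21 (3.34) and Retsat (1.67) leading. Fgf21 read 2.62, 2.39, 2.77 and 3.28 on wild-type control and 6.28, 6.44, 5.49 and 5.70 with Wy14643, and stayed between 1.84 and 2.21 over the knockout arrays. In knockout it was thus dim on both foods.

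Of 25 nuclear receptors and coregulators the xenobiotic receptor Nr1i2 was higher (1.99) and the estrogen receptor Esr1 lower (-1.89). That is 4% in each direction, near the shares of all genes (5.38% and 4.62%). Of 19 hepatocyte transcription factors none was called. Cebpa, the largest of the latter, gave -0.96 with adjusted p = 0.0241. Iron and heme gave 4 lower of 19, with Alas2 (-2.30), Steap4 (-1.2) and hepcidin, Hamp (-1.18). Lysosome and autophagy genes gave 4 higher and 2 lower of 23, with Ctsa (-1.40), Map1lc3a (1.12) and Ctsd (1.01). Of 24 interferon and antigen presentation genes 2 were lower (8.33%, beside 4.62% of all genes), the immunoproteasome subunit Psmb8 (-2.36) and H2-K1 (-0.61).

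Markers of other liver cells moved as well. In whole liver, fewer cells of a type and less RNA per cell cannot be told apart. Of 15 Kupffer cell markers 5 had a lower interaction and none a higher one, led by Mpeg1 (-0.93), Vsig4 (-0.86) and C1qc (-0.85). Vsig4 lost its call in 4 and C1qc in 3 of 16 refits without 1 array. The knockout estimate was negative for 14 of the 15, beside 8687 of all 18193 genes, with a median of -0.16. The summed intensity of the list was 933 to 1197 in wild type on Wy14643, against 1629 to 1891 in wild type and 1850 to 2294 in knockout on control food and 1620 to 2275 in knockout on Wy14643. The sums of wild type on Wy14643 thus lay below all others. Stellate cell markers gave 5 lower of 15, with Tcf21 (-1.28), Pdgfrb (-0.91) and Reln (-0.90), of which Pdgfrb lost its call in 12 of 16 refits without 1 array (-1.05 to -0.83) and with the replicate number as a block. Their sum was 1366 to 1596 in that group against 2145 to 2884 over the other 12 arrays. Sinusoidal endothelial markers gave 2 lower, Ptprb (-0.68) and Stab2 (-0.65), and 1 higher, Lyve1 (3.19), with sums of 1665 to 1849 against 2028 to 2489. Without 1 array Ptprb lost its call in 9 of 16 refits and Stab2 in 7.

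The sum of 12 hepatocyte markers was lower too, 62786 to 68614 in wild type on Wy14643 against 75591 to 78557 over the rest, and 1 of them, Cps1 (-0.89), was called. Beside the decreases of complement, acute phase and interferon genes, some of which these cells also express, the part of these shifts was not tested. Adipocyte markers gave 2 higher of 7, Fabp4 and Cidec, while the defining markers Adipoq, Lep, Retn and Adig were not called and 4 of the 7 were dim in wild type on Wy14643. Of 5 erythroid markers Alas2 alone was called, and cholangiocyte, T and NK, B and plasma cell and neutrophil markers had no called member, most of them dim.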

How the data were processed

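Each of 16 mice gave 1 liver RNA sample and 1 single-colour Affymetrix 430 2.0 array. The values deposited by the authors are linear intensity values that GCRMA 2.20 had produced, per the submitters' processing notes. This method corrects background by probe sequence, normalizes quantiles and summarizes probes. The scale was inferred from the values, whose median lay between 4.42 and 4.72 on each array and whose maximum lay between 18107 and 22364. A change common to most genes would be hidden by this normalization, and dim values depend on its background step.

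The log2 was taken with no offset. Without the 64 Affymetrix controls, 45037 probe sets entered a single limma 3.58.1 model (R 4.3.3) of the 16 arrays, which estimated the 4 group means and left 12 residual degrees of freedom. Tests were two-sided. The Benjamini-Hochberg adjustment covered every probe set fitted, and calls needed adjusted p under 0.01 and a fold over 1.5. Intervals are 95% intervals from the same fit. The number of arrays limits the precision, and scan dates were not used here. By the platform annotation 34945 probe sets had a single gene, 932 had several and 9160 had none, and each gene was represented by its brightest probe set. Promoters were RefSeq windows of GRCm38.p6. Strand and cross-hybridization of probes were not examined.

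Genes named for a class reached a group mean of 6, had no overlap between foods where a response was called, and ranked first by the interaction (12 raised and 10 lowered receptor-required) or, for shared and opposite effects, by the smaller response. From each gene list up to 3 called members were named, or the largest where none was called, with no condition on level or overlap. The effects, classes and 46 gene lists were chosen with earlier results of these data known. The classes were tested on simulated data. Alternatives were level filters, centring, quantile normalization, an added constant, array weights, trend and robust moderation, other thresholds, 1 probe set per gene, the replicate number as a block, and leaving out each array. Responses at unadjusted p were added after the data were seen.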

Additional observations from a re-analysis of the deposited data

Results flagged for a closer look

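The responses of the genotypes differed by the interaction test for 1845 probe sets with a higher and 1325 with a lower value. Single arrays that stood apart from the other 3 of their group by Dixon's criterion were found in 24 of 500 groups of named genes (4.8%), and chance alone marks about 1 in 20.

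In wild type on Wy14643, replicate 3 read 6.13 for Hsd3b5, 6.67 for Fitm1, 5.53 for Elovl7, 8.93 for C8a and 5.34 for C1qc, where the nearest arrays read 3.28, 7.87, 6.82, 8.55 and 5.84. In the first 4 it lay toward the control level. Replicate 4 of that group read 9.27 for Acot4 and 9.87 for Apoa4.

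In wild type on control food, replicate 4 read 7.36 for Slco1a4, 11.96 for Aox3, 11.54 for H2-K1 and 13.33 for Hamp, and replicate 3 read 2.75 for Lyve1. In knockout on control food, Pdk4 read 8.82 in replicate 1 with the next array at 6.58, C1qc read 6.45 in replicate 2, Sdr9c7, Birc5 and Bhlhe40 read 7.64, 2.26 and 8.04 in replicate 3, and Lcn2 read 7.10 in replicate 4. In knockout on Wy14643, Apoa4 read 13.17 in replicate 1, Saa1 read 9.15 in replicate 2, and Cidec, C1s1, Hal and Cebpa read 2.56, 10.36, 9.97 and 10.16 in replicate 4.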

How the results depend on the processing

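For arrays with the same replicate number, Pearson's r of their deviations lay between -0.123 and 0.19 (median 0.048) and passed 0.1 for 6 of 24 pairs, against 7 of 72 pairs with different numbers (median -0.015), and 6 of 16 arrays correlated best with their own number, so the numbers were not taken to pair the mice. With the replicate number as a block 3037 interactions were called, 1 probe set was called in knockout only, and Serpina4-ps1, Dclk3 and Pdgfrb lost their calls. The count of 3170 interactions stayed between 2545 and 3345 under level filters at a mean of 4, centring, quantiles, log2(value + 16), array weights and moderation with trend, and was 2126 with a mean above 6, where 1863 were receptor-required. The share of higher calls was 58.2% in the main fit, 47.6% with a mean above 6, 62.2% after centring and 53.1% after quantile normalization. The median interaction of all probe sets was -0.04, -0.002 and -0.021 in the main, centred and quantile values. The constant of 16 gave 1 knockout-only probe set, and trend with robust moderation gave 13 shared, 2 opposite and 1 knockout-only. At adjusted p under 0.05 with no fold, 5438 interactions were called, of which 4988 were receptor-required and 432 had neither response called, with 23 shared, 4 opposite and 4 knockout-only. At a fold over 2 the counts were 2041, 1757 receptor-required and 3 shared. A test against the fold itself (treat) gave 981, 961 receptor-required, 1 shared and 20 with neither response called. One probe set per gene chosen before adjustment gave 1919 and 1732 receptor-required. With responses at unadjusted p, 1283 were shared, 348 opposite, 17 knockout-only and 0 had neither response called. Leaving out each array gave 2807 to 3123 interactions, 2606 to 2900 receptor-required, 2 to 8 shared, 0 to 1 opposite, 0 to 2 knockout-only and 188 to 309 with neither response called. The lowest shared counts came without knockout Wy14643 replicate 1 or knockout control replicate 3, the opposite call and 2 knockout-only calls came without knockout Wy14643 replicate 2, and 1 knockout-only call without knockout control replicate 4. In those refits C1qc lost its call 3 times, H2-K1 2, Pdgfrb 12, Ptprb 9, Stab2 7 and Vsig4 4 times of 16. The added constant weakened 6 named interactions past the threshold and moderation with trend 5. No named interaction changed sign where it was computed, although the filters on the mean left out part of them. The cause of these differences was not tested beyond the fewer probe sets or arrays that some settings use. Signal near the array median limits folds of dim genes.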
